A study of Homo sapiens with 8 samples.

Results

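The genes described here are the 10 core genes of the circadian clock: *BMAL1* (also named *ARNTL*), *CLOCK*, *NPAS2*, *PER1*, *PER2*, *PER3*, *CRY1*, *CRY2*, *NR1D1* and *NR1D2*. They were taken by name, each matched to 1 of the 57815 gene identifiers measured, because *BMAL1* had been seen to move in opposite directions in 2 cell lines treated with DEM. *BMAL1* was therefore selected on its own response, and its values are given as a description with no test. The question put to the other 9 genes was whether any of them shared this opposite response. A further 25 clock genes, regulators and outputs of the loop, were read beside them.

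The circadian clock is a feedback loop of transcription that runs in most cells of the body, lung epithelium included. BMAL1 pairs with CLOCK, or with its paralog NPAS2, and the pair binds E-box sequences and activates *PER* and *CRY* genes, whose proteins return to the nucleus and inhibit the pair. In another loop, the nuclear receptors NR1D1 and NR1D2 (REV-ERB alpha and beta) repress *BMAL1* through ROR response elements, at which the ROR receptors activate it. Cells in a dish drift apart in phase unless a stimulus aligns them, so the level in a culture is an average over its cells.

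ABC1 and HCC4006 are established lung adenocarcinoma lines without mutations in *KEAP1* or *NRF2*, which the study called NRF2-normal. The cells were kept in low-glucose DMEM with fetal bovine serum and treated for 16 h with 100 µM DEM (diethylmaleate, an electrophile that inactivates KEAP1 and so raises the transcription factor NRF2) or with the vehicle, DMSO. The 4 groups of ABC1 vehicle, ABC1 DEM, HCC4006 vehicle and HCC4006 DEM held 2 RNA-seq libraries each, 8 in all, which the study's methods describe as biological duplicates. Each group is 1 line at 1 time point, so neither a phase nor a rhythm could be measured. In bulk RNA, fewer cells with a transcript and less transcript per cell cannot be told apart.

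Levels are FPKM (sequenced fragments normalised to transcript length and to library size), so that genes can be compared within a library. Log2 fold changes were fitted by limma on log2(FPKM + 1), which makes them smaller than the ratio of the levels in weakly expressed genes, and a gene was called at a Benjamini-Hochberg adjusted p under 0.05 over all genes tested. *HMOX1* (heme oxygenase), *NQO1* (a quinone reductase) and *GCLM* (a subunit of the glutathione-making ligase), known NRF2 targets, had 9.51, 2.98 and 3.19 times the vehicle mean in ABC1 and 9.81, 1.86 and 4.86 times in HCC4006, and all 6 of the NRF2 targets examined were called higher in each line. The libraries held 12515 to 13573 genes with at least 1 FPKM, and replicates correlated across genes with a Pearson's r of 0.9922 to 0.9950. In scale the ABC1 libraries differed by replicate number, with FPKM sums of 628775 and 627085 for replicate 0 against 697394 and 737534 for replicate 1. The HCC4006 libraries summed to between 662825 and 697441. The 5 epithelial markers were expressed in all libraries, at a summed 3655 to 5799 FPKM in ABC1 and 1983 to 2472 FPKM in HCC4006. The summed level was lower with DEM in each line, and *KRT8* and *KRT18* were called lower in HCC4006. *EPCAM* and *CDH1* were not called, with log2 fold changes of -0.004 and -0.02 in ABC1 and 0.06 and -0.14 in HCC4006. The lung lineage markers *NKX2-1*, *NAPSA* and *SFTPB* summed to 0.989 to 1.39 FPKM in ABC1 and to 57.0 to 63.4 FPKM in HCC4006. The 6 markers of other cell types found in the files summed to 5.42 to 8.40 FPKM in ABC1 and to 95.7 to 110 FPKM in HCC4006, nearly all of it *CD68* in HCC4006 (89.3 to 102 FPKM, although the authors' count table gave *CD68* a base mean of only 5.56 there). The defining leukocyte markers *PTPRC* and *CD3E* were at or under 0.192 FPKM in every library, and the part of any of these markers in the results below was not tested.

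Short promoter windows were read for the motifs through which the loop is known to run, to show where they stand in these genes. The windows span 250 bases before and 50 bases after each RefSeq transcription start (promoter table of GRCh38.p14, placed here on GRCh37 by sequence identity), and all 10 genes were matched, with 15 windows. The 6 motifs were searched on both strands: the E-box CACGTG (in 7.26% of all 35116 windows), the E-prime box CACGTT (5.34%), the RORE TAGGTCA (1.85%), the D-box TTATGTAA (0.886%), the CRE TGACGTCA (1.85%) and the antioxidant response element TGACNNNGC, the NRF2 site (13.3%). Matches may overlap one another, and a match is a run of letters, not a bound site. Of the 10 genes, 2 held an E-box, 5 an E-prime box, 2 a RORE, 2 a D-box, 6 an antioxidant response element and 0 a CRE. *NPAS2* held none of the 6 motifs. The same numbers of the 15 windows held each motif, and these, not the counts of genes, compare with the percentages of windows.

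The sites below are a selection of those of the loop, with the motif in capitals and 30 bases each. They read 5′ to 3′ on the strand of the gene, so that an E-prime box on the other strand reads AACGTG. The E-prime boxes of *CLOCK* and *CRY2* and the RORE of *CRY2* are not shown. The bases before the start overlap annotated exons in the windows of the *BMAL1*, *PER1* and *PER2* sites. *BMAL1* held a single RORE, 31 bases after one of its starts at chr11:13299356-13299385 (plus strand), the kind of element at which NR1D and ROR proteins meet. The E-prime boxes of *PER2* (chr2:239197431-239197460, minus strand), *CRY1* (chr12:107487399-107487428, minus strand) and *NR1D1* (chr17:38256993-38257022, minus strand) and the E-box of *PER1* (chr17:8055878-8055907, minus strand) are of the kind the BMAL1 pair binds. The D-box of *PER3* (chr1:7844163-7844192, plus strand) is of the kind bound by DBP, TEF and HLF and, in competition, by NFIL3.
BMAL1 RORE: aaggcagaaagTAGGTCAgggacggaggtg
PER1 E-box: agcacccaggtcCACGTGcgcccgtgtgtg
PER2 E-prime box: ggcgcgcgcggtCACGTTttccactatgtg
CRY1 E-prime box: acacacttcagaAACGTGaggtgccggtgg
NR1D1 E-prime box: gcgcaagagctcAACGTGccggctgttgga
PER3 D-box: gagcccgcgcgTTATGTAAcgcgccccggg

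The *PER2* window also held an antioxidant response element match that shares its last letters with the E-prime box (chr2:239197436-239197465, minus strand), shown here with only the former in capitals.
PER2 antioxidant response element: ggcgcggcgcGCGCGGTCAcgttttccact

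Among the core genes, *NR1D2* had the window with the most matches. The 250 bases before its second start (chr3:23987362-23987611, plus strand, outside the annotated exons) hold, in this order, an antioxidant response element, a D-box, a pair of E-boxes and another antioxidant response element, all in capitals.
NR1D2 upstream: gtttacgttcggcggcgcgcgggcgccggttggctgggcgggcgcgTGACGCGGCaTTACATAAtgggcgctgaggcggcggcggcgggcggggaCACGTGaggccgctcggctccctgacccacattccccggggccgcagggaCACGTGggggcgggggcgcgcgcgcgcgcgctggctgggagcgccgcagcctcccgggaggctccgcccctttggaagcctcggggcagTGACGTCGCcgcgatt

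**Figure D1:**
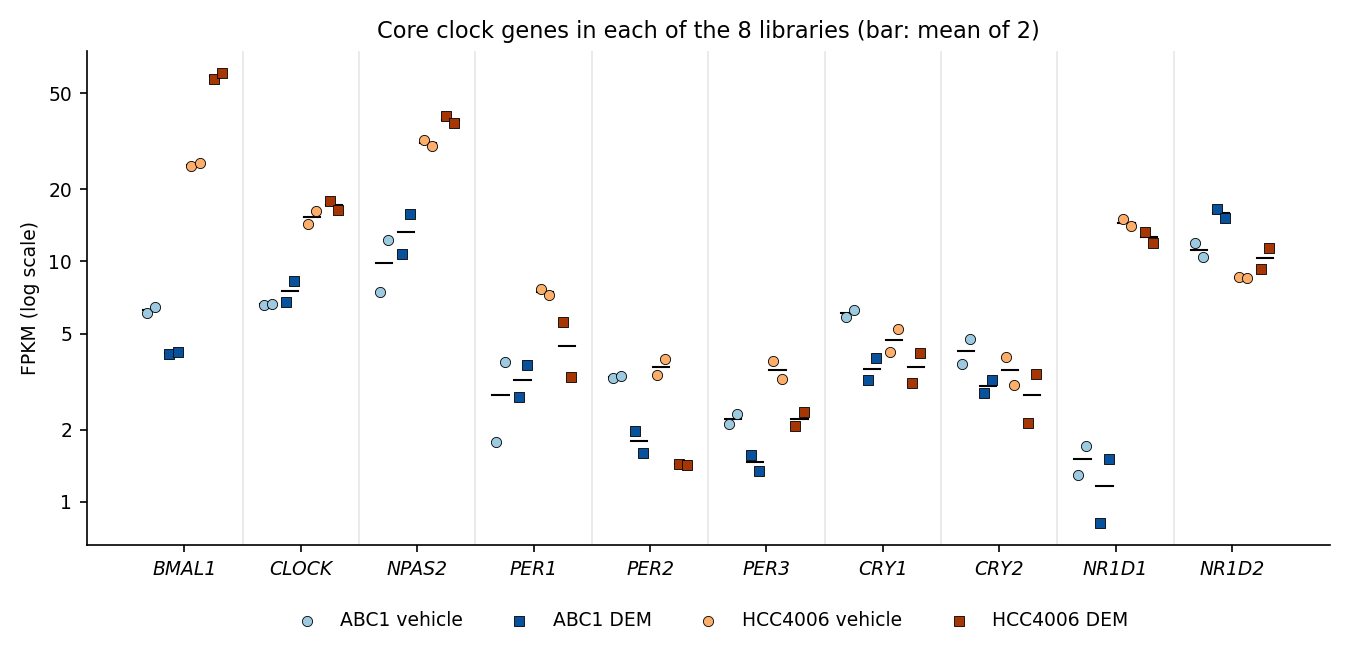
FPKM (log scale) of the 10 core clock genes in each of the 8 libraries, with a point per library, coloured by line and treatment, and a bar at the mean of 2. *BMAL1* went from 25.2 to 59.0 FPKM on average in HCC4006 and from 6.27 to 4.16 FPKM in ABC1. *PER2* and *PER3* were lower with DEM in both lines, but of these changes only that of *PER2* in HCC4006 was called.

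*BMAL1* (ENSG00000133794.13, chr11:13298199-13408813, plus strand, GRCh37) encodes the partner of CLOCK and NPAS2. In ABC1 it was at 6.08 and 6.45 FPKM with vehicle and at 4.12 and 4.19 FPKM with DEM. In HCC4006 it was at 24.9 and 25.6 FPKM with vehicle and at 57.4 and 60.6 FPKM with DEM. No library of one treatment reached the other within a line, and the direction was opposite in the lines, which is the pattern it was chosen by. The DEM mean was 0.663 times the vehicle mean in ABC1 and 2.34 times in HCC4006. On the log2 scale the fold changes were -0.49 and 1.19. The lines already differed with vehicle by 4.03 times, so that DEM widened the distance between them. These levels rest on more reads in HCC4006, where the authors' base mean (scaled counts averaged over the libraries of the line) was 733 against 84.9 in ABC1. An unnamed gene on the other strand covers 6.07% of the exon bases of *BMAL1*.

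*CLOCK* (ENSG00000134852.10, chr4:56294070-56413076, minus strand), the histone acetyltransferase that pairs with BMAL1, was not called with DEM in either line. It was at 6.62 and 6.65 FPKM with vehicle and 6.76 and 8.32 FPKM with DEM in ABC1, and at 14.4 and 16.2 FPKM with vehicle and 17.8 and 16.4 FPKM with DEM in HCC4006. All DEM libraries lay above the vehicle libraries of their line, by a narrow margin in both. The log2 fold change was 0.16 in each line (limma, adjusted p = 0.600 in ABC1 and 0.327 in HCC4006), and the difference between the lines had a 95% confidence interval of -0.42 to 0.41.

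*NPAS2* (ENSG00000170485.12, chr2:101436601-101613291, plus strand), which can stand in for CLOCK, rose with DEM in HCC4006, from 31.9 and 30.3 FPKM to 40.3 and 37.6 FPKM. Its log2 fold change there was 0.31 (standard error 0.08, limma, adjusted p = 0.0471). The call was lost without any 1 of the 4 HCC4006 libraries, without the minimum of 1 FPKM, without the mean-variance trend and in a model of all 8 libraries, with adjusted p from 0.0300 to 0.418 over the alternatives tried. In ABC1, *NPAS2* was at 7.49 and 12.3 FPKM with vehicle and at 10.8 and 15.7 FPKM with DEM. These ranges overlapped, and the log2 fold change of 0.40 did not pass (adjusted p = 0.438). The difference between the lines was -0.09 (95% confidence interval -0.86 to 0.68), so neither partner of BMAL1 was called as opposite.

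*PER2* (ENSG00000132326.7, chr2:239152685-239198743, minus strand), a repressor of the BMAL1 pair, had the largest decrease with DEM among the 9 genes in HCC4006 and, to 2 decimals, shared it with *CRY1* in ABC1. In HCC4006 it fell from 3.36 and 3.92 FPKM to 1.44 and 1.43 FPKM. The DEM mean of 1.43 ± 0.01 FPKM (SD, n = 2) was 0.393 times the vehicle mean of 3.64 ± 0.40 FPKM (SD, n = 2), and the log2 fold change was -0.93 (standard error 0.15, limma, adjusted p = 0.0144). This call was lost without HCC4006 vehicle replicate 1, without either DEM library and without the minimum of 1 FPKM (highest adjusted p = 0.110), and the log2 fold change lay between -1.28 and -0.84 throughout. In ABC1, *PER2* was at 3.27 and 3.34 FPKM with vehicle and at 1.98 and 1.59 FPKM with DEM. The DEM libraries lay below both vehicle libraries, but the log2 fold change of -0.63 did not pass (standard error 0.19, adjusted p = 0.142). A model of all 8 libraries, which shares 1 estimate of the spread, called it lower there (adjusted p = 0.0285). The difference between the lines in the response of *PER2* was -0.30 (95% confidence interval -0.74 to 0.14).

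*PER3* (ENSG00000049246.10, chr1:7844351-7905237, plus strand) was lower with DEM in every library of both lines, from 2.10 and 2.32 FPKM to 1.57 and 1.34 FPKM in ABC1 and from 3.87 and 3.24 FPKM to 2.07 and 2.37 FPKM in HCC4006. The log2 fold changes of -0.38 and -0.50 did not pass (limma, adjusted p = 0.319 and 0.0733). Exons of *UTS2* on the other strand cover 10.7% of its exon bases.

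*PER1* (ENSG00000179094.9, chr17:8043790-8059824, minus strand), an immediate early gene of the clock, was the only one of the 9 genes whose fitted change had opposite signs in the lines. In HCC4006 it was at 7.70 and 7.26 FPKM with vehicle and at 5.58 and 3.30 FPKM with DEM (log2 fold change -0.67, standard error 0.21, limma, adjusted p = 0.0752). The log2 fold change was -0.37 (adjusted p = 0.164) without HCC4006 DEM replicate 1 and -0.98 (adjusted p = 0.0402) without replicate 0. In ABC1 it was at 1.77 and 3.82 FPKM with vehicle and at 2.72 and 3.71 FPKM with DEM, so the DEM libraries lay inside the vehicle range. The log2 fold change of 0.20 (adjusted p = 0.745) became -0.20 without ABC1 vehicle replicate 0. The difference between the lines was -0.87 (95% confidence interval -1.85 to 0.11, adjusted p = 0.392), the largest of the 9 in size, and it ran against that of *BMAL1*.

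*CRY1* (ENSG00000008405.7, chr12:107385142-107487327, minus strand), a strong repressor of the pair, was at 5.89 and 6.29 FPKM with vehicle and at 3.22 and 3.95 FPKM with DEM in ABC1. Its log2 fold change of -0.63 (standard error 0.17, limma) had an adjusted p of 0.116, which became 0.0495 in a model of all 8 libraries. In HCC4006 it was at 4.20 and 5.23 FPKM with vehicle and at 3.13 and 4.16 FPKM with DEM, where the groups did not overlap by a narrow margin and the log2 fold change was -0.30 (adjusted p = 0.257). *CRY2* (ENSG00000121671.7, chr11:45868669-45904799, plus strand), its paralog, was at 3.76 and 4.77 FPKM with vehicle and at 2.83 and 3.22 FPKM with DEM in ABC1 (log2 fold change -0.38, adjusted p = 0.292). In HCC4006 its groups overlapped, at 3.9997 and 3.07 FPKM with vehicle and 2.14 and 3.42 FPKM with DEM (log2 fold change -0.28, adjusted p = 0.393).

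*NR1D1* (ENSG00000126368.5, chr17:38249046-38256842, minus strand), the nuclear receptor that represses *BMAL1*, did not pass with DEM in either line. It was at 15.03 and 14.0 FPKM with vehicle and at 13.3 and 12.0 FPKM with DEM in HCC4006, where the groups did not overlap (log2 fold change -0.19, limma, adjusted p = 0.234). ABC1 had very little of it, at 1.29 and 1.72 FPKM with vehicle and at 0.821 and 1.51 FPKM with DEM, and its groups overlapped (log2 fold change -0.22, adjusted p = 0.656, 0.01 without ABC1 DEM replicate 0). The difference between the lines in the response was 0.03 (95% confidence interval -0.55 to 0.61). *NR1D2* (ENSG00000174738.8, chr3:23986777-24022108, plus strand), its paralog, was higher with DEM in both lines. It went from 11.9 and 10.5 FPKM to 16.5 and 15.2 FPKM in ABC1 (log2 fold change 0.47, adjusted p = 0.139) and from 8.61 and 8.53 FPKM to 9.29 and 11.4 FPKM in HCC4006 (log2 fold change 0.24, adjusted p = 0.226). Neither passed, although no DEM library of *NR1D2* reached down to a vehicle library of its line.

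**Figure D2:**
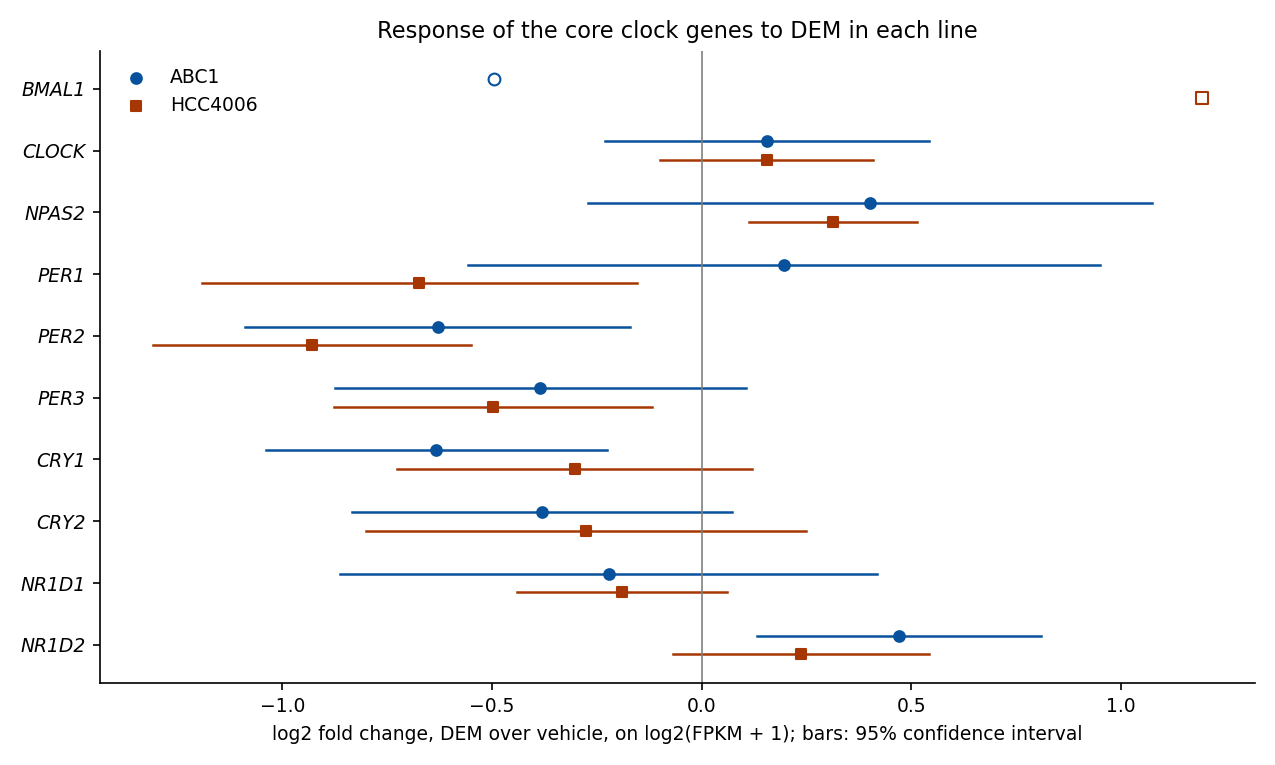
Log2 fold change of each core clock gene, DEM over vehicle, in ABC1 (circles) and HCC4006 (squares), with the 95% confidence interval as a bar; the hollow *BMAL1* points carry no interval because the gene was selected on these values. The points of 8 of the 9 other genes lie on the same side of 0 in both lines, *PER1* being the exception, and the share of all genes that do so was not counted.

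Counted together with *BMAL1* left apart, 0 of the 9 genes were called in ABC1 by limma, while 3 had an unadjusted p under 0.05, beside 2771 of all 12635 genes. Over all genes tested there, 0.768% were called higher and 0.435% lower. With the replicate number as a block, 1 of the 9 was called higher and 1 lower in ABC1, beside 1185 and 1163 of all genes. Both DEM libraries were above both vehicle libraries for 2 of the 9 and below them for 4, beside 25.5% and 28.2% of all genes. In HCC4006, 1 of the 9 was called higher (*NPAS2*) and 1 lower (*PER2*), beside 8.45% and 10.7% of all genes, and 4 had an unadjusted p under 0.05, beside 4985 of all 13542 genes. There the groups were apart for 3 genes in the higher direction and 5 in the lower, beside 29.3% and 35.3% of all genes. The median log2 fold change of the 9 was -0.22 in ABC1 and -0.28 in HCC4006, against -0.02 and -0.03 over all genes. For the difference between the lines in the response, 0 of the 9 were called and 0 had an unadjusted p under 0.05 (limma), beside 0.307% of all genes called higher and 0.329% lower. An unadjusted p under 0.05 was reached by 2068 of all 13682 genes for that difference. With DEM, 8 of the 9 had a fitted change of the same sign in both lines. How many of all genes had the same sign in both was not counted, so this number has no background. In ABC1 the signs of *PER1* and *NR1D1* also changed when 1 library was left out. The difference between the lines of *PER1*, with a standard error of 0.42 beside a median of 0.20 over all genes, did not pass. Permuting 2 labels against 2 exactly gives, on both sides, no p under 0.333.

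The lines differed in the level of most of these genes with vehicle. Of the 9, 5 were called higher and 1 lower in HCC4006 than in ABC1 (limma), beside 37.3% and 30.4% of all genes. The vehicle libraries of the lines were apart for 6 of them in the higher direction and for 2 in the lower, beside 45.6% and 39.5% of all genes. *NR1D1* had the largest difference, 14.5 ± 0.73 FPKM (SD, n = 2) in HCC4006 against 1.502 ± 0.30 FPKM (SD, n = 2) in ABC1, 9.66 times as much. Its log2 fold change was 2.64 (standard error 0.14, adjusted p = 6.9e-05), and the authors' base means, from tables normalised separately for each line, were 543 and 50.9. *THRA*, a thyroid hormone receptor gene whose exons on the other strand cover 18% of the exon bases of *NR1D1*, differed in the same direction, at 8.06 and 7.98 FPKM against 1.24 and 1.45 FPKM (log2 fold change 1.95). The strand setting of the authors' counting is not given in the sources used here, so how far the reads of these neighbours were kept apart was not tested.

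Both partners of BMAL1 were also higher in HCC4006 with vehicle. *NPAS2* had 3.14 times the level of ABC1 (log2 fold change 1.60, limma, adjusted p = 0.00196, range 5.5e-05 to 0.0702 over the alternatives) and *CLOCK* 2.30 times (1.09, adjusted p = 6.3e-04). The call of *NPAS2* was lost without either vehicle library of HCC4006. *PER1* had 2.68 times (1.21, adjusted p = 0.0114) and *PER3* 1.61 times (0.50, adjusted p = 0.0234), although *PER1* did not pass without either vehicle library of HCC4006 or without the minimum of 1 FPKM, and *PER3* without any 1 of the 4 vehicle libraries or without that minimum (adjusted p at most 0.146 and 0.0911). *NR1D2* was lower in HCC4006, at 0.767 times the level of ABC1 (log2 fold change -0.35, adjusted p = 0.0415), a call that 7 of the 11 alternatives lost. *PER2* was nearly level between the lines, with a log2 fold change of 0.11 (95% confidence interval -0.22 to 0.44), and *CRY1* and *CRY2*, at -0.32 and -0.22, did not pass.

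**Figure D3:**
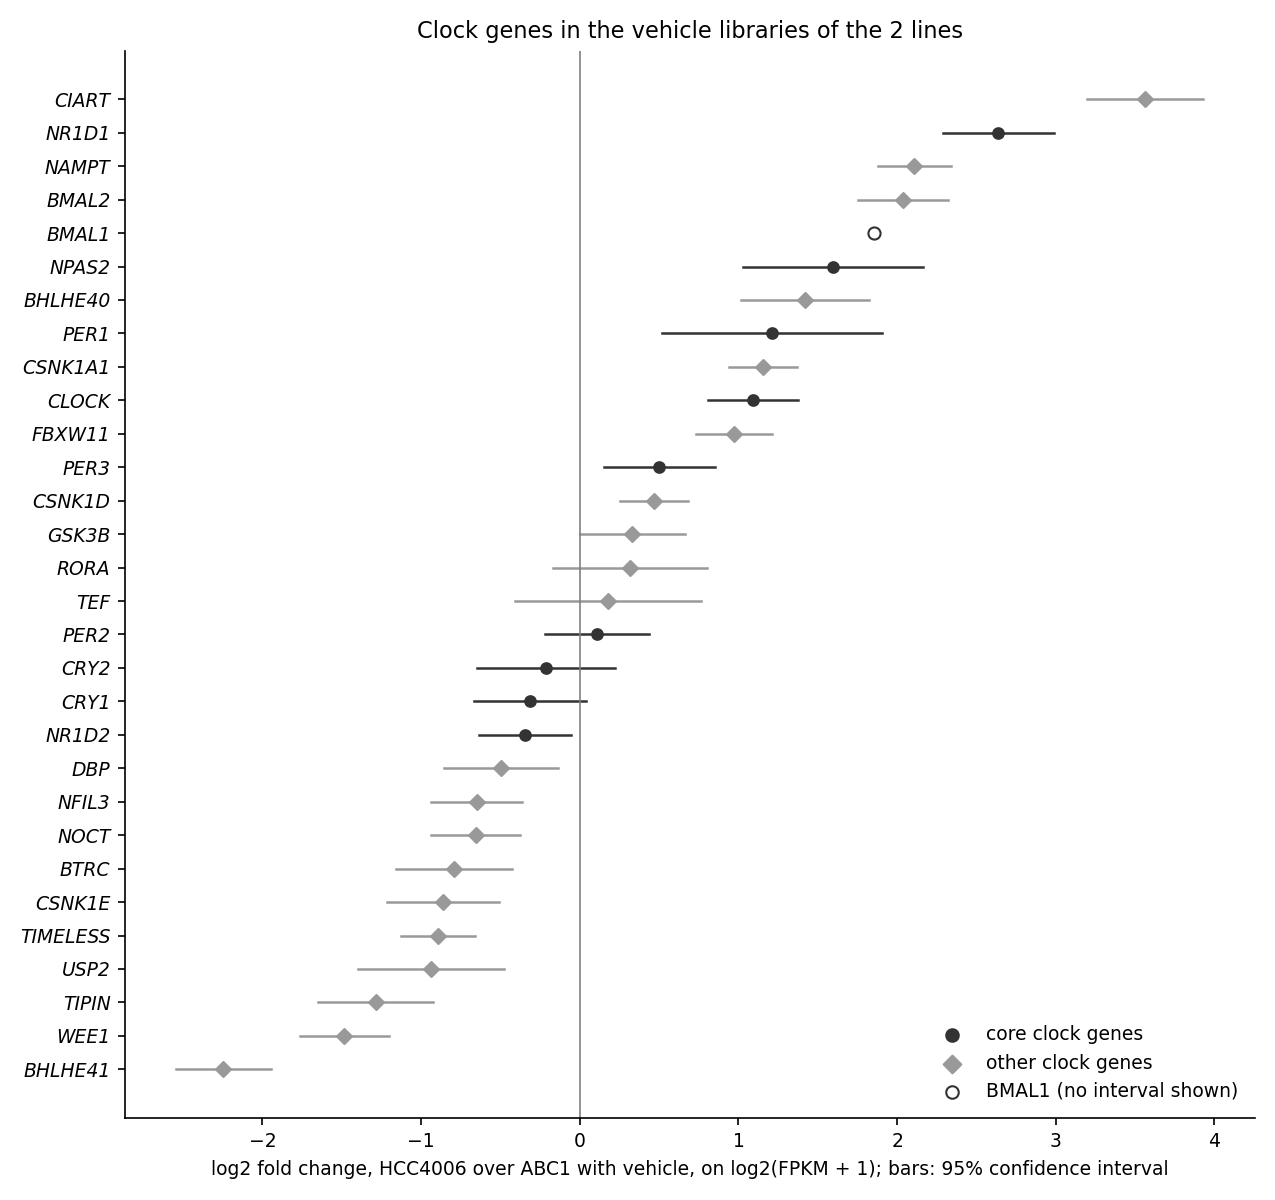
Log2 fold change of the vehicle libraries, HCC4006 over ABC1, of the core clock genes (circles) and other clock genes (diamonds), with the 95% confidence interval as a bar and *BMAL1* as a hollow circle without one. *NR1D1* at 2.64 lies highest of the 9 core genes and *BHLHE41* at -2.25 lowest of all; *CIART* was at or near 0 FPKM in ABC1, so the position of its point depends on the pseudocount.

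With vehicle in ABC1, *NR1D2* (11.2 FPKM on average) and *NPAS2* (9.90) came first with overlapping ranges, followed by *CLOCK* (6.64), *BMAL1* (6.27) and *CRY1* (6.09), of which the latter pair overlapped. *CRY2* (4.26), *PER2* (3.30), *PER1* (2.80), *PER3* (2.21) and *NR1D1* (1.502) closed the order, and *PER1* overlapped both of its neighbours. In HCC4006 with vehicle, *NPAS2* (31.1) led, then *BMAL1* (25.2), *CLOCK* (15.3) and *NR1D1* (14.5), of which the last pair overlapped. *NR1D2* (8.57), *PER1* (7.48) and *CRY1* (4.72) were each separate from the next, and *PER2* (3.64), *PER3* (3.55) and *CRY2* (3.54) did not differ beyond their spread. With DEM, *BMAL1* moved to the first place in HCC4006 (59.0) and *PER2* to the last (1.43). In ABC1 with DEM, *NR1D2* (15.8) and *NPAS2* (13.3) still led, and *PER3* (1.46) and *NR1D1* (1.17) were last, again with overlapping ranges.

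**Figure D4:**
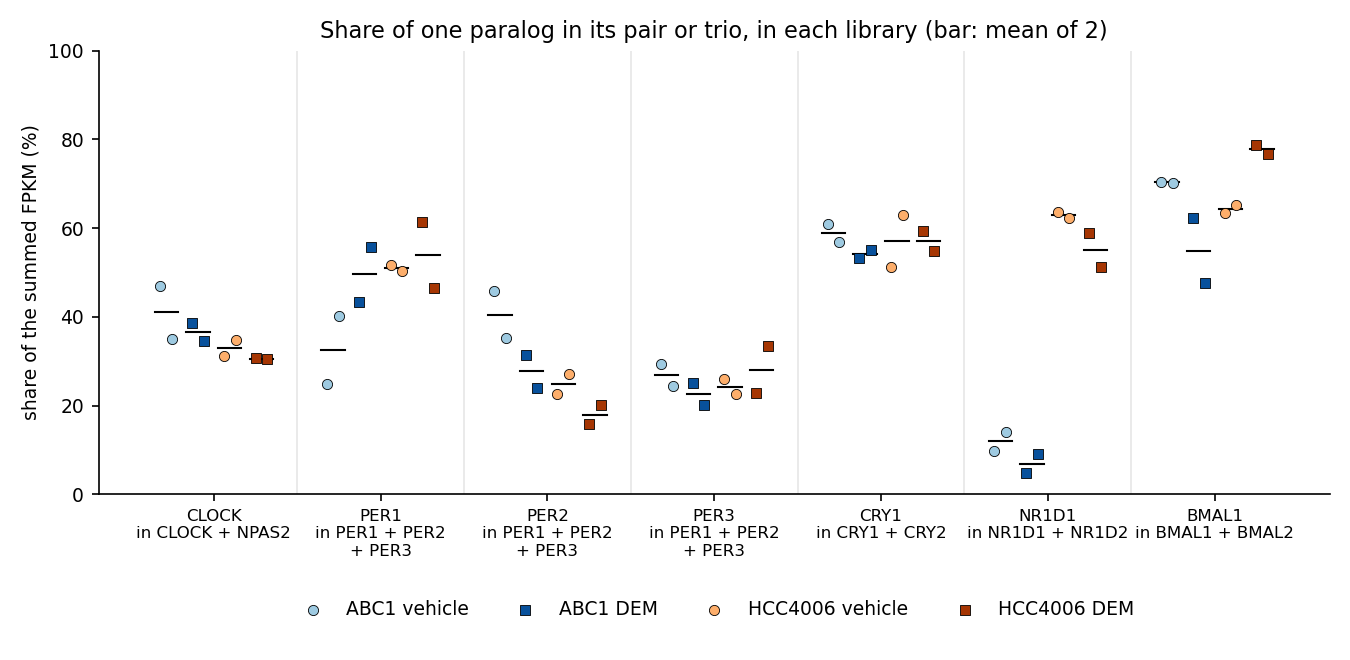
Share (%) of one paralog in the summed FPKM of its pair or trio, a point per library and a bar at the mean of 2. *NR1D1* made up 4.73% to 14.1% of its pair in ABC1 and 51.3% to 63.6% in HCC4006, and the share of *PER2* was lower with DEM in both lines. The shares were not tested.

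Shares within a family do not depend on the scaling of a library. They were not tested, and how often other families were apart between treatments was not counted, so a lack of overlap below has no background. Single genes were often apart with DEM, 25.5% higher and 28.2% lower in ABC1 and 29.3% and 35.3% in HCC4006. Of the *NR1D* pair, *NR1D1* made up 9.78% and 14.1% with vehicle and 4.73% and 9.05% with DEM in ABC1. In HCC4006 it made up 63.6% and 62.2% with vehicle and 58.8% and 51.3% with DEM, so *NR1D2* was the main form in ABC1 and *NR1D1* in HCC4006. In both lines the share of *NR1D1* was lower in the DEM libraries, with no overlap, although neither gene of the pair was called with DEM. The share of *PER2* among the *PER* genes went from 45.8% and 35.2% to 31.5% and 24% in ABC1 and from 22.5% and 27.2% to 15.8% and 20.1% in HCC4006. No DEM library reached the vehicle range of its line, while the shares of *PER1* and *PER3* overlapped between the treatments in HCC4006. In ABC1 the share of *PER1* was higher with DEM without overlap, at 43.4% and 55.8% against 24.8% and 40.3%, and that of *PER3* overlapped. *CRY1* kept between 51.2% and 63.0% of the *CRY* pair in all 8 libraries. Its share was lower with DEM without overlap in ABC1, at 53.2% and 55.1% against 61% and 56.9%, and overlapped in HCC4006. *CLOCK* had 30.4% to 46.9% of the sum with *NPAS2*, so *NPAS2* was the larger in every library. The share of *CLOCK* overlapped between the treatments in ABC1. In HCC4006 it was lower with DEM by a narrow margin, at 30.7% and 30.4% against 31.1% and 34.8%. Of the sum of *BMAL1* and *BMAL2*, *BMAL1* held 70.5% and 70.1% with vehicle and 62.2% and 47.7% with DEM in ABC1, and 63.5% and 65.2% with vehicle and 78.7% and 76.8% with DEM in HCC4006, a description only since *BMAL1* was selected on these values.

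Of the 25 other clock genes, 20 passed the minimum of 1 FPKM in ABC1 and 21 in HCC4006. By limma, 0 of the 20 were called with DEM in ABC1, beside 0.768% of all genes higher and 0.435% lower, with a median log2 fold change of 0.004. Of the 20, 4 had an unadjusted p under 0.05, beside 2771 of all 12635 genes. In HCC4006, 3 of the 21 were called higher and 5 lower, beside 8.45% and 10.7% of all genes. There, 15 of the 21 had an unadjusted p under 0.05, beside 4985 of all 13542 genes, and the median of the 21 was 0.09. For the difference between the lines, 0 of 22 were called, beside 0.307% of all genes in the higher direction and 0.329% in the lower. Of the 22, 7 had an unadjusted p under 0.05, beside 2068 of all 13682 genes.

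The *BMAL1* paralog *BMAL2* and the nuclear receptor *RORA*, which activates *BMAL1*, were not called with DEM. *RORA* was at 6.07 and 4.11 FPKM with vehicle and 7.36 and 7.72 FPKM with DEM in HCC4006, with DEM above vehicle in both libraries. In ABC1 it was at 4.10 and 3.56 FPKM with vehicle and at 1.43 and 4.29 FPKM with DEM, which overlapped. *BMAL2* was higher in HCC4006 with vehicle, at 14.3 and 13.6 FPKM against 2.54 and 2.75 FPKM in ABC1, 5.28 times as much (log2 fold change 2.04, limma, adjusted p = 8.2e-05). *RORB* was at or near 0 in all libraries.

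Of the PAR bZIP factors, which act at D-boxes, *DBP* was lower with DEM in every library of both lines, from 10.2 and 11.1 FPKM to 6.86 and 6.01 FPKM in ABC1 and from 8.16 and 6.45 FPKM to 5.19 and 5.41 FPKM in HCC4006. Neither change passed (log2 fold change -0.65 with adjusted p = 0.0910 in ABC1 and -0.39 with adjusted p = 0.104 in HCC4006, limma), and the model of all 8 libraries called it lower in ABC1 (adjusted p = 0.0266). *TEF* likewise lay lower with DEM in both lines without passing, and *HLF* stayed under 0.263 FPKM throughout. *NFIL3*, the repressor at the same sites, rose in HCC4006 from 4.12 and 4.24 FPKM to 7.26 and 7.05 FPKM (log2 fold change 0.65, standard error 0.12, adjusted p = 0.0172). Without any 1 of the 4 libraries, or without the minimum of 1 FPKM, that call was lost (adjusted p at most 0.0827). In ABC1 *NFIL3* went from 6.88 and 7.39 FPKM to 12.5 and 10.7 FPKM with a log2 fold change of 0.63 (adjusted p = 0.0959, and 0.0173 in the model of all 8 libraries). The difference between the lines in the response of *NFIL3* was 0.03 (95% confidence interval -0.35 to 0.40).

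The other repressors at E-boxes moved differently. *BHLHE40* (DEC1) fell in HCC4006 from 39.5 and 39.6 FPKM to 25.1 and 24.9 FPKM (log2 fold change -0.64, standard error 0.08, limma, adjusted p = 0.00576), and only the model of all 8 libraries lost the call (adjusted p = 0.0659). In ABC1 it was at 16.6 and 12.1 FPKM with vehicle and at 17.7 and 12.5 FPKM with DEM. Its paralog *BHLHE41* (DEC2) was the one other clock gene whose libraries were apart in opposite directions, at 85.6 and 102 FPKM with vehicle and 55.6 and 82.9 FPKM with DEM in ABC1 and at 19.2 and 18.7 FPKM with vehicle and 27.8 and 22.5 FPKM with DEM in HCC4006. Of all genes, 28.2% were apart and lower with DEM in ABC1 and 29.3% apart and higher in HCC4006. How many shared the pattern of *BHLHE41* was not counted. The difference between the lines was 0.84 (95% confidence interval 0.19 to 1.49), in the direction of that of *BMAL1*, and did not pass (adjusted p = 0.220, range 0.0879 to 0.486 over the alternatives). *CIART*, a repressor known as CHRONO, was at 0 to 0.108 FPKM in ABC1. It fell in HCC4006 from 12.3 and 10.6 FPKM to 8.07 and 6.30 FPKM (log2 fold change -0.61, adjusted p = 0.0378, lost in 7 of 11 alternatives with adjusted p up to 0.223).

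**Figure D5:**
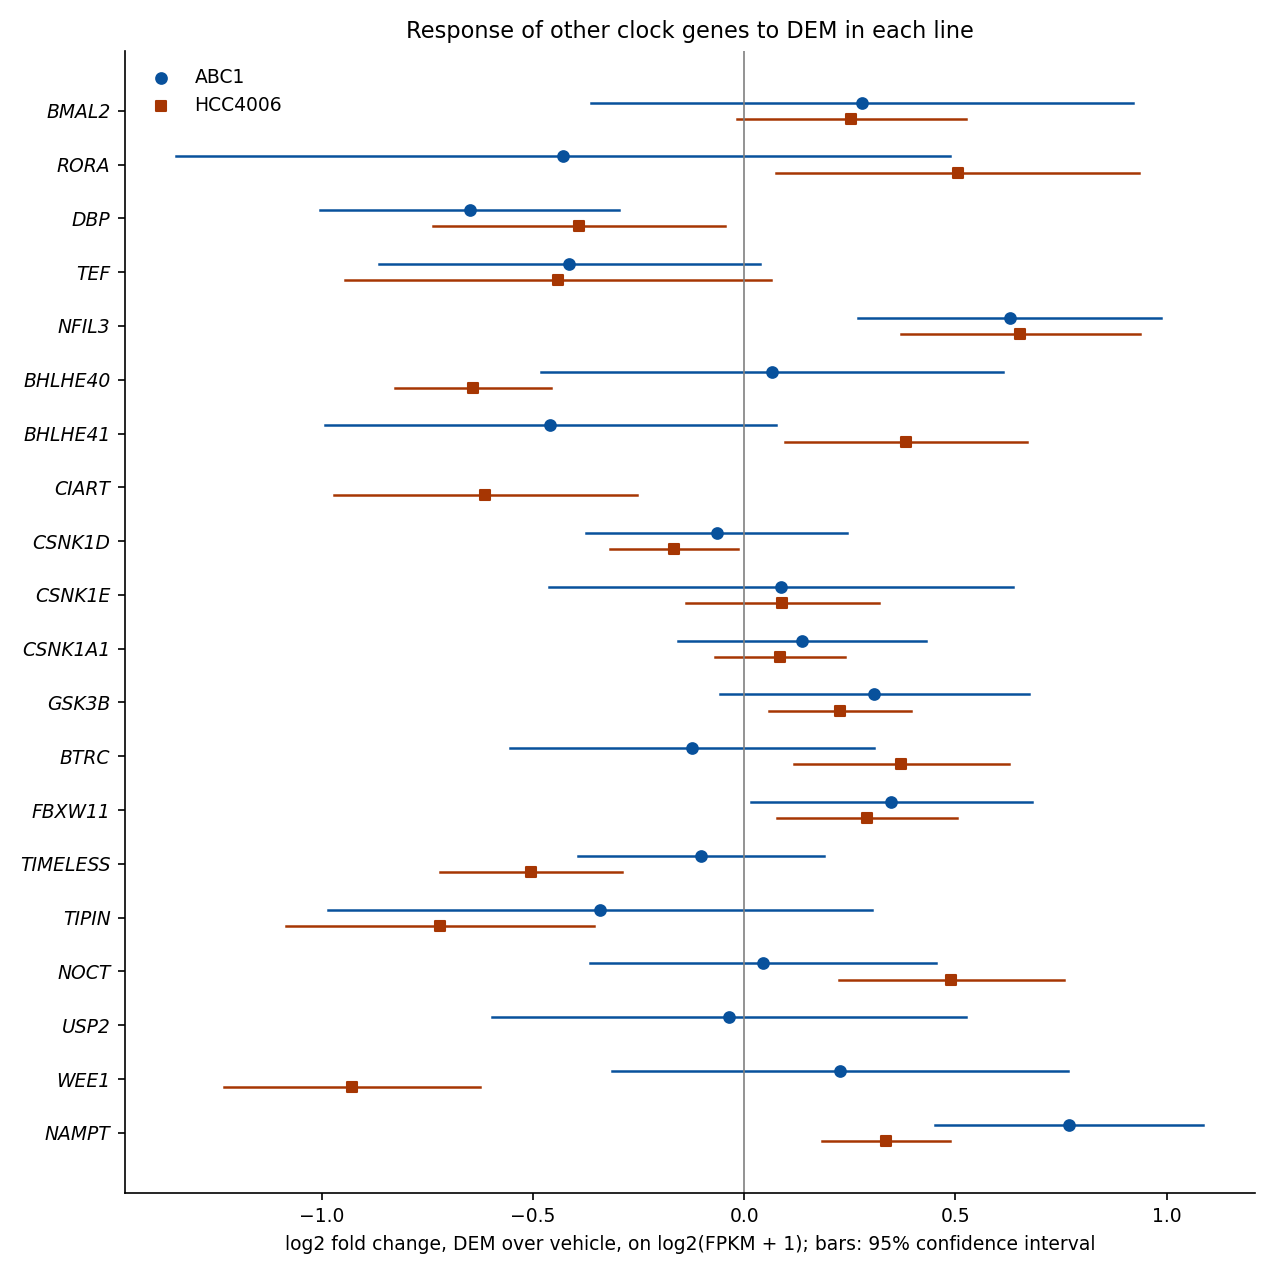
Log2 fold change of other clock genes expressed in a line, DEM over vehicle, in ABC1 (circles) and HCC4006 (squares), with the 95% confidence interval as a bar. *WEE1* at -0.93 is the lowest and *NFIL3* at 0.65 the highest in HCC4006, and in ABC1 *NAMPT* at 0.77 lies highest.

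The kinases and ubiquitin ligases that set the stability of PER and CRY proteins were not called with DEM, 0 of 7 tested in each line (limma). An unadjusted p under 0.05 was reached by 1 in ABC1 and 4 in HCC4006, beside 2771 of all 12635 and 4985 of all 13542 genes. With vehicle, *CSNK1D*, *CSNK1A1* and *FBXW11* were called higher in HCC4006 and *CSNK1E* and *BTRC* lower, with log2 fold changes from -0.86 to 1.16. The calls of *CSNK1D*, *CSNK1E* and *BTRC* were lost without either vehicle library of HCC4006 (adjusted p at most 0.0927). Of the partners and outputs, all 5 genes tested in HCC4006 were called, 2 higher and 3 lower, beside 8.45% and 10.7% of all genes. *TIMELESS* and *TIPIN*, partners that are better known at the replication fork, fell from 22.9 and 23.9 FPKM to 16.7 and 15.7 FPKM (log2 fold change -0.50, adjusted p = 0.0166) and from 7.84 and 9.97 FPKM to 5.33 and 4.65 FPKM (-0.72, adjusted p = 0.0261). *WEE1*, a clock-driven kinase of the cell cycle, fell from 15.5 and 17.5 FPKM to 7.49 and 8.94 FPKM (-0.93, adjusted p = 0.00798, lost without HCC4006 vehicle replicate 1 and without the minimum of 1 FPKM). In ABC1 *WEE1* was at 50.2 and 45.6 FPKM with vehicle and 45.2 and 69.8 FPKM with DEM, and the difference between the lines of -1.16 (95% confidence interval -1.81 to -0.50) had an adjusted p of 0.126, or 0.0499 without ABC1 DEM replicate 0. *NOCT*, a rhythmic phosphatase of NADP, and *NAMPT*, the rate-limiting enzyme of NAD salvage, rose in HCC4006 by 0.49 (adjusted p = 0.0314) and 0.34 (adjusted p = 0.0190) on the log2 scale. The calls of *TIMELESS*, *TIPIN*, *NOCT* and *NAMPT* were lost in 5, 5, 6 and 7 of the 11 alternatives. In ABC1, *NAMPT* went from 40.0 and 43.2 FPKM to 75.9 and 67.5 FPKM (log2 fold change 0.77, adjusted p = 0.0614, and 0.00558 in the model of all 8 libraries).

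With vehicle, 8 of the 22 other clock genes tested were called higher in HCC4006 and 11 lower (limma), beside 37.3% and 30.4% of all genes, so the share called higher was near that of all genes. *NAMPT* was 4.39 times as high as in ABC1 (log2 fold change 2.11, adjusted p = 3.8e-05), whereas *BHLHE41* was at 0.202 times the level of ABC1 (-2.25, adjusted p = 6.8e-05) and *WEE1* at 0.345 times (-1.48, adjusted p = 2.1e-04). *DBP*, *NFIL3*, *TIMELESS*, *TIPIN*, *NOCT* and *USP2* were also lower in HCC4006, and *BHLHE40* was higher. The call of *DBP* (log2 fold change -0.50) was lost without any 1 of the 4 vehicle libraries, with values from -0.65 to -0.35, and without the minimum of 1 FPKM (adjusted p at most 0.156). That of *NFIL3* was lost without either vehicle library of HCC4006, that of *NOCT* without replicate 0 of them, and that of *USP2* without replicate 1 or without the minimum (adjusted p at most 0.0667).

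The genes most like *BMAL1* over the 8 libraries were ranked by Pearson's r on log2(FPKM + 1) after subtracting the mean of each line, among the 11329 genes that averaged 1 FPKM or more in each line. They were *KDM6A* (r = 0.9922), *DUSP16* (0.9837), *MID1* (0.9776), *NEIL3* (0.9756) and *FOXO3* (0.9741). Their differences between DEM and vehicle, in log2(FPKM + 1), ran from -0.16 for *DUSP16* to -0.57 for *MID1* in ABC1 and from 0.43 for *KDM6A* to 0.90 for *NEIL3* in HCC4006, all smaller in HCC4006 than that of *BMAL1*. No other core clock gene was among these named genes. A list this short, out of 11329 genes, would seldom hold any given gene. The absence therefore does not show whether the other core genes moved like *BMAL1*, and their ranks are not given here. The genes most like *PER2* were *ESCO2* (r = 0.9991), *DZIP3* (0.9921), *SFXN2* (0.9878), *BRIX1* (0.9855) and *SNRNP35* (0.9852), which were lower with DEM in both lines. These r are a description over 8 libraries that share 4 groups, picked as the highest of many.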

How the data were processed

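Gene expression in ABC1 and HCC4006 cells was analysed from the values the authors deposited. PolyA-selected, strand-specific libraries were made, and the authors deposited 1 FPKM value per gene and library. The study's methods name TopHat and Cufflinks on hg19, while the submitters' processing notes list bcl2fastq 2.15.0, cutadapt 1.15, STAR 2.5.3a, SAMtools, Cuffnorm, HTSeq, DESeq2 and R 3.2.0 with hg19/GRCh37.p13, so the aligner behind the FPKM values is uncertain. The authors also deposited a table per line of their own DEM comparison (fold changes, standard errors and p-values, not used here) with a base mean, a count signal averaged over the line, which was used only to show depth. Base means summed to 13786938 in ABC1 and 13957320 in HCC4006. No counting interval is given, because read counts of single libraries were not used here.

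Symbols were found for 55534 of 57815 identifiers. Models were fitted with limma 3.58.1 (R 4.3.3) and its mean-variance trend to log2(FPKM + 1) of genes averaging 1 FPKM or more in the libraries fitted, for DEM against vehicle within each line (12635 and 13542 genes), the difference between these responses (13682) and vehicle against vehicle (13747). P-values were adjusted by Benjamini-Hochberg over all of these genes and called under 0.05. They measure the spread between 2 libraries per group. The fitting code was tested on simulated data. Positions are those of GENCODE on GRCh37, and 40 of 41 RefSeq promoter windows of the clock genes were placed there. The members, the other clock genes and the lists were chosen with earlier results of these data known. Named were all members in every library, the other clock genes called in a comparison or given for their role, NRF2 targets as a check, *THRA*, and the 5 genes most like *BMAL1* and *PER2*. A few of the other clock genes are in the counts but not reported here by name. Alternatives changed the pseudocount (0.1), the minimum, the trend, the scaling, the libraries fitted and the replicate block.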

Additional observations from a re-analysis of the deposited data

Results flagged for a closer look

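Among the clock genes, 2 had a DEM response that went one way in every library of ABC1 and the other way in every library of HCC4006. Over all genes, both DEM libraries lay above both vehicle libraries for 25.5% in ABC1 and 29.3% in HCC4006. They lay below them for 28.2% and 35.3%. How many of all genes were apart in opposite directions was not counted, so the 2 have no background. For *BMAL1* the response of HCC4006 minus that of ABC1 was 1.69 on the log2 scale; the gene was selected for this pattern, so the difference was not tested. For *BHLHE41* it was 0.84, and limma's test of the difference did not pass (adjusted p = 0.220). *BHLHE41* was named for this pattern after its values were seen.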

How the results depend on the processing

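With 2 libraries per group, the number of calls depended on the settings. Genes called higher and lower in ABC1 (97 and 55 as reported) numbered 0 and 0 without the minimum of 1 FPKM, 27 and 6 without the mean-variance trend, 142 and 99 with median of ratios scaling, 180 and 124 with upper quartile scaling and 738 and 756 in a model of all 8 libraries. In HCC4006 (1144 and 1447) they numbered 177 and 193 without the minimum and 706 and 847 in the model of all 8 libraries. For the difference between the lines (42 and 45) they numbered 11 and 9 with a pseudocount of 0.1 and 173 and 230 without the minimum. Leaving out 1 library, with the lone library assumed to vary like the others, gave 10 to 51 genes higher and 8 to 18 lower in ABC1, 290 to 464 and 344 to 564 in HCC4006, 0 to 17 and 2 to 27 for the difference between the lines, and 3055 to 5356 and 2517 to 4028 for the lines with vehicle (5121 and 4184), where the lowest counts came without a vehicle library of HCC4006.

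Of the 9 core genes, ABC1 had 0 called higher and 2 lower with DEM (*PER2* and *CRY1*) in the model of all 8 libraries. In HCC4006 (1 and 1) there were 0 and 0 without the minimum, 0 and 1 without the trend and in the model of all 8 libraries, and 0 higher and 0 to 1 lower when 1 library was left out. With vehicle (5 and 1), HCC4006 had 3 higher and 0 lower without the minimum, 0 lower with a pseudocount of 0.1 and with upper quartile scaling, and 2 to 4 higher and 0 to 1 lower when 1 library was left out. For the difference between the lines, no setting called any of the 9.

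Libraries with the same replicate number did not deviate together across the lines (r from -0.080 to 0.036) or, to any extent, within HCC4006 (0.054). In ABC1 r was 0.258, and the upper quartile scaling factors were 0.950 and 0.958 for replicate 0 against 1.06 and 1.05 for replicate 1. The study's methods name biological duplicates and no pairing, so the number was left out of the main models. Whether ABC1 libraries with the same number belong together was not tested. With the replicate block, the calls higher and lower were 1185 and 1163 in ABC1, 1457 and 1847 in HCC4006 and 5 and 8 for the difference between the lines. Of the 9 core genes, the block called 1 higher (*NR1D2*) and 1 lower (*CRY1*) in ABC1, 1 higher and 2 lower (*PER1* joined) in HCC4006, and 0 lower with vehicle.

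Of 986 comparisons of a single gene with an alternative, over 84 results, 860 kept direction and side of the threshold, 86 lost and 17 gained the call, and 22, none of them called, changed sign. *BMAL1*, compared by size alone, moved by more than its standard error once, to 1.99 for the lines with vehicle at a pseudocount of 0.1. In ABC1 with DEM, *PER1* became -0.202 without vehicle replicate 0 and *NR1D1* 0.010 without DEM replicate 0, within ranges of -0.202 to 0.594 and -0.454 to 0.010 when 1 library was left out. For the difference between the lines, *CLOCK* became 0.002 and 0.011 with median of ratios and upper quartile scaling. Leaving out 1 library gave, for that difference, -0.133 to 0.132 for *CLOCK*, -0.412 to 0.236 for *NPAS2*, -0.141 to 0.352 for *CRY2*, -0.201 to 0.263 for *NR1D1*, -0.079 to 0.129 for *NFIL3*, -0.160 to 0.045 for *FBXW11* and -0.768 to 0.009 for *TIPIN*. The causes were not tested. Levels near 1 FPKM, such as *NR1D1* in ABC1, rest on few reads.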
